A study of Sorghum bicolor with 16 samples.

Results

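The comparison was between the endosperm of a waxy mutant of sorghum and that of its wild type at 6 DPA (days post anthesis), the youngest of the 4 ages that were sequenced. The wild type (WT) was BTx623, the line of the sorghum reference genome. The mutant, *wxe*, was a line induced with EMS (ethyl methane sulfonate), homozygous for a stop-gained allele of *GBSSI* and made in BTx623. Both lines were field grown in adjacent rows, and each library came from endosperm dissected out of frozen seeds from the middle portion of 3 pooled panicles. At 6 DPA there were 2 libraries of each genotype, 4 of the 16 libraries of the series. The mutant was a single line that carried other EMS mutations, so the effect of *wxe* given here is that of the whole line. The unit was FPKM, which divides the fragments of a gene by its length and by the number of fragments mapped in the library. Genes entered the comparison if their mean was above 1 FPKM in either genotype at 6 DPA, which kept 16967 of the 34129 genes in the table.

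Cereal endosperm fills with starch and storage protein that feed the seedling. Sucrose arrives from the leaf, sucrose synthase or invertase cleaves it, and the glucose units pass through glucose 1-phosphate to ADP-glucose, which ADP-glucose pyrophosphorylase makes. Soluble starch synthases and branching enzymes build the branched polymer amylopectin from ADP-glucose, while the granule-bound starch synthase GBSSI builds the nearly linear amylose. A grain without active GBSSI has little or no amylose and is called waxy. At the youngest age the endosperm is only beginning to fill.

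Differences were tested on log2(FPKM + 1) with limma, two-sided, in a model of all 8 groups, with Benjamini-Hochberg adjustment over the 16967 genes. Calls needed both an adjusted p below 0.05 and a log2 fold change of 0.58 or more in size. Fold changes (*wxe* minus WT, with their standard error, SE) use the log2(FPKM + 1) scale and so understate changes of low genes. With 2 libraries a group, the smallest p of an exact permutation test is 0.333, and the calls depend on the spread that limma shares over genes and groups. In bulk RNA, fewer cells of a type and less RNA per cell cannot be told apart.

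The 2 *wxe* libraries at 6 DPA agreed less well than any other pair of replicates. On the log2(FPKM + 1) scale Pearson's r across genes was 0.976 between them, 0.993 between the 2 WT libraries of the same age, and 0.989 to 0.994 in the other 7 pairs of the series, WT at 6 DPA included. A difference of at least 1 on the log2 scale separated the 2 *wxe* libraries in 463 genes (2.73%) and the 2 WT libraries in 86 genes (0.507%). Each *wxe* library had more genes above 1 FPKM (16400 and 16402) than each WT library (15790 and 15755). The sums of FPKM ran from 493357 to 550572, and the 10 most abundant genes held 5.91% to 6.57% of the sum in each library. Among fitted variance weights, *wxe* at 6 DPA had the lowest of the 8 groups, 0.396 against 0.717 to 1.60 in the others. The main model takes 1 spread per gene for all 8 groups, so its SEs and adjusted p-values at 6 DPA may be too small.

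The endosperm genes *SbGBSSI*, *SbSBEIIb* and *SbAGPLS1* were abundant in all 4 libraries, between 245 and 847 FPKM, and *SbSSIIIa* was at 27.4 to 84.7 FPKM. Each of these genes was called lower in *wxe*, as given below. The storage globulin genes were at 0.236 to 4.62 FPKM. Genes of other seed tissues could not be counted, because the gene identifiers came without names, so the part of other tissues in these libraries was not tested.

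At 6 DPA 3320 genes (19.6% of those tested) were called, 2447 higher (14.4%) and 873 lower (5.15%) in *wxe*. The median log2 fold change was 0.95 among the genes called higher and -0.75 among those called lower, against 0.01 over all genes tested. Changes of at least 1 on the log2 scale were more numerous upward, with 1103 genes higher and 187 lower, and so were those of at least 2, with 136 and 25. Of the changes of at least 3, 11 were higher and 9 were lower. Genes called higher made up 73.7% of the calls, and 57.5% after quantile normalization (2087 higher and 1543 lower). The higher calls took a similar share at every level of expression, from 12.4% of genes at 100 to 1000 FPKM to 16.6% of genes at up to 5 FPKM. Of the 39 genes above 1000 FPKM, 6 were called higher and 5 lower.

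**Figure D1:**
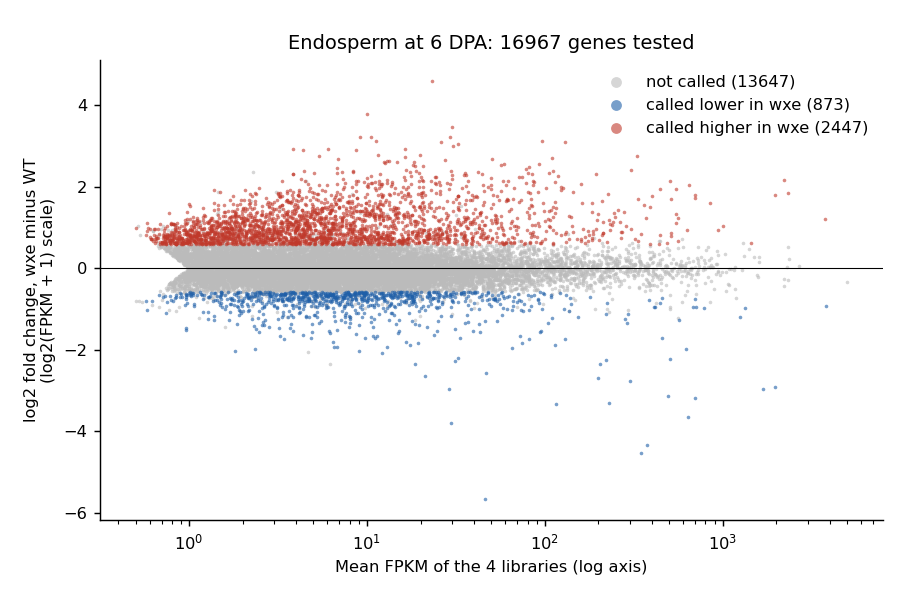
Log2 fold change of *wxe* against WT on the log2(FPKM + 1) scale (vertical axis) by mean FPKM of the 4 libraries (horizontal log axis) for the 16967 genes tested at 6 DPA, 1 point a gene. The 2447 genes called higher (red) spread over all levels, whereas the falls of more than 3 (blue, lower right) are of well expressed genes.

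Replicate 2 of *wxe* lay farther from WT than replicate 1 did. It was the farther library in 2235 of the 2447 genes called higher (91.3%) and in 661 of the 873 called lower (75.7%). The median distance from the WT mean in the genes called higher was 0.75 on the log2 scale in replicate 1 and 1.16 in replicate 2, and in the genes called lower it was -0.62 and -0.93. These distances describe the genes that both libraries helped to choose. Without *wxe* replicate 2, 2126 genes were called (1604 higher, 522 lower), of which 1974 were among the 3320. Without *wxe* replicate 1, 4742 were called (3103 higher, 1639 lower), of which 3168 were among them.

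**Figure D2:**
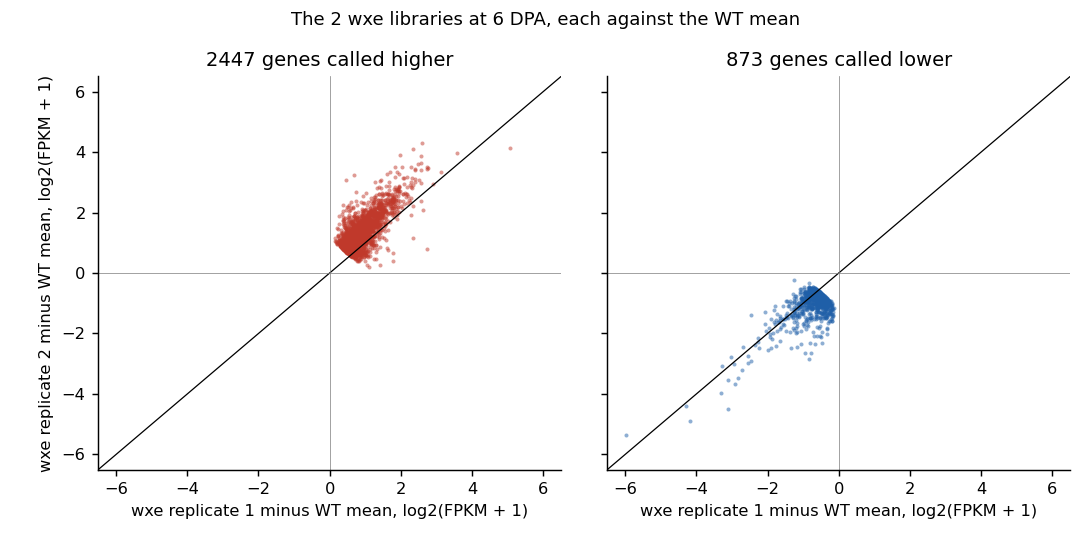
Difference of each *wxe* library from the WT mean on the log2(FPKM + 1) scale, replicate 1 on the horizontal and replicate 2 on the vertical axis, for the genes called higher (left) and lower (right), with the line of equal difference. Most points lie on the far side of the line for replicate 2, in 91.3% of the genes called higher and 75.7% of those called lower.

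The genes with a known role were the 37 that the study names by identifier in its text. The study chose some of them on these same samples, so their counts are no independent evidence of a direction. Of the 37, all passed the filter, 9 were called higher, 19 were called lower and 9 were not called. The shares over all genes tested were 14.4% called higher and 5.15% called lower. Their median log2 fold change was -0.58, against 0.01 over all genes tested. Both *wxe* libraries lay above both WT libraries in 12 of the 37 and below both in 24. Over all genes tested the groups did not overlap in 66.8% (34.9% above, 31.9% below), so a lack of overlap alone is common in this comparison.

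Starch synthesis genes were mostly lower in *wxe* at 6 DPA. Of 8, 6 were called lower, 0 were called higher and 2 were not called, with a median log2 fold change of -0.82. Among all genes tested 5.15% were called lower and 14.4% higher. The mutated gene came first. *SbGBSSI* (*Sobic.010G022600*, chromosome 10) had 847 and 752 FPKM in the WT libraries and 331 and 329 FPKM in the *wxe* libraries. The *wxe* libraries were nearly equal and lay well under both WT libraries, and the mean was 2.42-fold lower (log2 fold change -1.27, SE 0.16, adjusted p = 1.10e-04, limma).

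*SbAGPLS1* (*Sobic.003G230500*) encodes a large subunit of ADP-glucose pyrophosphorylase. It had 562 and 532 FPKM in WT and 327 and 245 FPKM in *wxe*, 1.91-fold lower (log2 fold change -0.95, SE 0.16, adjusted p = 7.78e-04, limma). *Sobic.002G160400*, which the study describes as acting in the same step from glucose 1-phosphate to ADP-glucose, fell from 132 and 136 FPKM to 93.4 and 71.5 FPKM (log2 fold change -0.71, SE 0.11, adjusted p = 6.32e-04, limma). In both genes replicate 2 of *wxe* was the lower library, and without it the fold change of *Sobic.002G160400* was -0.52 and no longer called, while *SbAGPLS1* stayed called at -0.74. *SbAGPLS2* (*Sobic.009G245000*), another large subunit, was low and its genotypes overlapped, with 11.9 and 9.77 FPKM in WT and 10.05 and 14.5 FPKM in *wxe* (log2 fold change 0.15, SE 0.20, adjusted p = 0.596, limma).

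The branching enzyme gene *SbSBEIIb* (*Sobic.004G163700*), which also carries a missense mutation in the line, had 556 and 525 FPKM in WT and 313 and 249 FPKM in *wxe*. The fall was 1.92-fold and close in size to that of *SbAGPLS1* (log2 fold change -0.95, SE 0.14, adjusted p = 4.14e-04, limma). Soluble starch synthases lengthen the chains of amylopectin. *SbSSIIIa* (*Sobic.007G068200*) gave 84.2 and 84.7 FPKM in WT and 69.6 and 27.4 FPKM in *wxe* (log2 fold change -0.93, SE 0.30, adjusted p = 0.0291, limma). Its fall came mainly from replicate 2, and the fold change was -0.28 without that library, no longer called. The call was also lost without either WT library, where the fold change kept its size (-0.94 and -0.93) but not its adjusted p. *SbSSIIC* (*Sobic.001G239500*) had 20.4 and 20.03 FPKM in WT and 14.6 and 11.9 FPKM in *wxe* (log2 fold change -0.58, SE 0.12, adjusted p = 0.00265, limma), at the fold threshold, and was not called without *wxe* replicate 2 (-0.45) or WT replicate 1 (-0.57). *SbSSIIIb* (*Sobic.006G221000*), the least abundant of the list, had 1.09 and 1.38 FPKM in WT and 2.46 and 1.93 FPKM in *wxe*, with both *wxe* libraries above WT. Its log2 fold change of 0.51 (SE 0.13, adjusted p = 0.00848, limma) was under the fold threshold, and it passed the threshold without *wxe* replicate 2 (0.63) or WT replicate 2 (0.61).

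Sugar genes split between higher and lower. Of 9, 4 were called higher and 2 lower, and in the other 3 both *wxe* libraries lay below WT without a call. Among all genes tested 14.4% were called higher and 5.15% lower, and both *wxe* libraries lay below WT in 31.9%. The genes that cleave sucrose by sucrose synthase were lower. *SS2* (*Sobic.001G344500*) had 605 and 534 FPKM in WT and 326 and 354 FPKM in *wxe* (log2 fold change -0.74, SE 0.16, adjusted p = 0.00412, limma). *SS3* (*Sobic.001G378300*) had 34.8 and 38.02 FPKM in WT and 22.1 and 23.9 FPKM in *wxe* (log2 fold change -0.64, SE 0.13, adjusted p = 0.00294, limma). The *wxe* libraries of both genes agreed closely and lay under WT, and the call of *SS3* was lost without WT replicate 2, at -0.58, just under the fold threshold. The gene of UTP glucose-1-phosphate uridylyltransferase, *Sobic.002G291200*, which interconverts UDP-glucose and glucose 1-phosphate, was at 525 and 545 FPKM in WT and 359.9 and 374 FPKM in *wxe*. Its adjusted p was 0.00206 (limma), but its log2 fold change of -0.54 was under the fold threshold.

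Sugar transporter genes of the SWEET family, whose proteins let sugars cross membranes, were higher. *SbSWEET16* (*Sobic.001G377600*) rose from 16.5 and 13.2 FPKM to 41.9 and 76.2 FPKM, 3.98-fold (log2 fold change 1.87, SE 0.25, adjusted p = 1.66e-04, limma). *SbSWEET1* (*Sobic.003G377700*) had 8.09 and 6.67 FPKM in WT and 13.5 and 30.2 FPKM in *wxe* (log2 fold change 1.35, SE 0.31, adjusted p = 0.00619, limma). Both *wxe* libraries were above WT in both genes, with replicate 2 the higher. *SbSWEET16* kept its call without replicate 2 (1.45), and *SbSWEET1* lost its call without that library (0.80) or WT replicate 2 (1.23), and with a pseudocount of 0.1, where the adjusted p was no longer below 0.05. The sucrose transporter gene *Sobic.001G488700* had 3.36 and 4.90 FPKM in WT and 2.82 and 2.67 FPKM in *wxe*, and was not called (adjusted p = 0.0714, limma), although it was without WT replicate 1 (-0.65).

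*Invertase 3* (*Sobic.004G004800*), which cleaves sucrose to glucose and fructose, was low but higher in *wxe*, with 1.91 and 1.49 FPKM in WT and 3.18 and 5.50 FPKM in *wxe* (log2 fold change 0.95, SE 0.17, adjusted p = 0.00125, limma). The neighbouring genes *SbAGA1* and *SbAGA2* act in raffinose metabolism and went apart. *SbAGA1* (*Sobic.002G075800*) had 2.50 and 3.35 FPKM in WT and 5.28 and 35.6 FPKM in *wxe* (log2 fold change 1.96, SE 0.56, adjusted p = 0.0179, limma). Most of that rise lay in replicate 2, and without it the fold change was 0.69 and not called. Without WT replicate 1 (1.80) or WT replicate 2 (2.12) the fold change stayed near its size and the adjusted p was no longer below 0.05. *SbAGA2* (*Sobic.002G075900*), far more abundant, had 97.2 and 104 FPKM in WT and 75.0 and 73.2 FPKM in *wxe*, with a log2 fold change of -0.44 (adjusted p = 0.00667, limma) under the fold threshold.

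The storage globulin genes were low at this age. *Globulin-1* (*Sobic.001G144900*) had 0.236 and 0.270 FPKM in WT and 4.34 and 0.865 FPKM in *wxe*, and *globulin-2* (*Sobic.001G059800*) had 1.35 and 1.51 FPKM in WT and 4.62 and 2.74 FPKM in *wxe*. Both *wxe* libraries were above WT in both genes, and here replicate 1 was the higher. Neither gene was called (adjusted p = 0.190 and 0.166, limma). The study calls kafirin the major storage protein of the endosperm and reports kafirin genes as lower in *wxe* at this age. Its text gives no identifiers for them, so they are not among the genes with a role. Which of the tested genes encode kafirins was not examined, and the globulin genes do not stand for all storage proteins. Of the fatty acid genes, *3-ketoacyl-CoA synthase 1* (*Sobic.001G482300*), an enzyme of fatty acid elongation, had 23.2 and 22.3 FPKM in WT and 42.6 and 83.8 FPKM in *wxe* (log2 fold change 1.35, SE 0.31, adjusted p = 0.00544, limma), and lost its call without *wxe* replicate 2 (0.88). *Sobic.001G403400*, the gene of a malonyl transacylase that loads malonyl units onto acyl carrier protein for fatty acid synthesis, had 68.1 and 69.4 FPKM in WT and 42.7 and 47.2 FPKM in *wxe* (log2 fold change -0.60, SE 0.10, adjusted p = 6.92e-04, limma), and lost its call without *wxe* replicate 1 (-0.53).

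**Figure D3:**
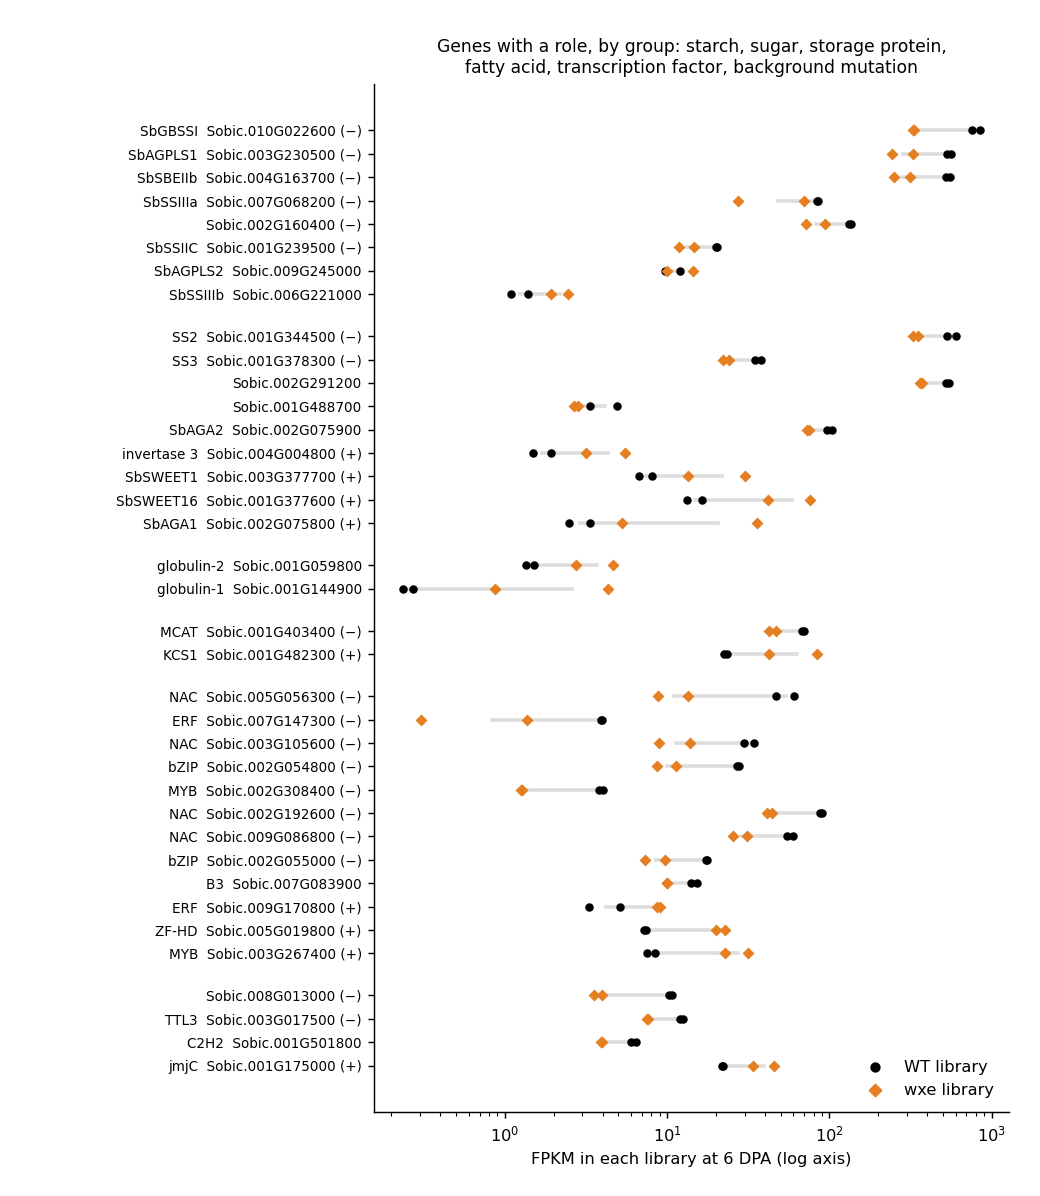
FPKM (horizontal log axis) of each WT library (black circles) and each *wxe* library (orange diamonds) at 6 DPA for the 37 genes with a role, in groups from starch (top) to background mutation (bottom), with a grey line from the WT mean to the *wxe* mean and a sign after the gene called higher (+) or lower (−). All 6 called starch genes have both diamonds to the left of both circles, and all 4 called higher sugar genes have both to the right. A call nearly fixes this, as 3318 of all 3320 called genes lie outside WT in the same way.

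Transcription factor genes were mostly lower, 8 of 12 called, with 3 called higher and 1 not called. The shares among all genes tested were 5.15% lower and 14.4% higher. In maize, factors of the bZIP and NAC families are known to activate storage protein and starch genes of the endosperm. The study also cites a rice NAC factor, OsNAC129, whose overexpression lowered the GBSSI gene. What the sorghum genes on the list do was not tested here. All 4 NAC genes and both bZIP genes on the list were called lower. The largest fall was of the NAC gene *Sobic.005G056300*, from 47.1 and 60.2 FPKM in WT to 13.4 and 8.74 FPKM in *wxe* (log2 fold change -2.20, SE 0.16, adjusted p = 4.60e-06, limma). The NAC gene *Sobic.003G105600* had 29.8 and 34.5 FPKM in WT and 13.8 and 8.86 FPKM in *wxe* (log2 fold change -1.45, SE 0.15). In both genes the *wxe* libraries lay far under WT, replicate 2 the lower.

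The NAC gene *Sobic.002G192600* was at 89.4 and 87.4 FPKM in WT and 44.6 and 41.1 FPKM in *wxe*, a fall of 2.06-fold with close replicates. For the NAC gene *Sobic.009G086800* the values were 55.1 and 59.5 FPKM in WT and 31.2 and 25.5 FPKM in *wxe*, 2.022-fold lower. The bZIP genes *Sobic.002G054800* and *Sobic.002G055000*, near each other on chromosome 2, both fell. The first had 26.8 and 27.7 FPKM in WT and 11.3 and 8.72 FPKM in *wxe* (log2 fold change -1.37), and the second had 17.7 and 17.4 FPKM in WT and 9.69 and 7.33 FPKM in *wxe* (log2 fold change -0.97). The adjusted p of the 4 NAC and 2 bZIP genes ran from 4.60e-06 to 7.93e-05 (limma), and leaving out any library kept all 6 calls.

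The ERF gene *Sobic.007G147300* had 3.97 and 3.89 FPKM in WT and 1.37 and 0.304 FPKM in *wxe* (log2 fold change -1.49, SE 0.20, adjusted p = 1.85e-04, limma), and the MYB gene *Sobic.002G308400* had 4.02 and 3.82 FPKM in WT and 1.28 and 1.26 FPKM in *wxe* (log2 fold change -1.12, SE 0.12, adjusted p = 4.56e-05, limma). Another MYB gene, *Sobic.003G267400*, went the other way, from 8.399 and 7.503 FPKM to 22.9 and 31.6 FPKM (log2 fold change 1.64, SE 0.18, adjusted p = 4.70e-05, limma). Members of a family thus differed in direction. The zinc finger homeodomain gene *Sobic.005G019800* rose from 7.24 and 7.44 FPKM to 19.9 and 22.8 FPKM (log2 fold change 1.42, SE 0.11, adjusted p = 5.37e-06, limma), with close replicates in both genotypes. The ERF gene *Sobic.009G170800* had 3.31 and 5.11 FPKM in WT and 8.71 and 9.05 FPKM in *wxe* (log2 fold change 0.94, SE 0.26, adjusted p = 0.0145, limma), and was not called without WT replicate 1 (0.69) or without *wxe* replicate 2 (0.92). The B3 gene *Sobic.007G083900* was not called, at 15.2 and 14.1 FPKM in WT and 9.95 and 10.03 FPKM in *wxe* (adjusted p = 0.0639, limma).

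Other EMS mutations of the line fall in 4 more genes that the study followed. The study describes them as carrying large-effect mutations and as lower in *wxe* at every age. *Sobic.008G013000*, an expressed protein, had 10.2 and 10.7 FPKM in WT and 3.55 and 3.97 FPKM in *wxe* (log2 fold change -1.27, SE 0.13), and *Sobic.003G017500* (*TTL3*, thioredoxin-like with tetratricopeptide repeats) had 12.0 and 12.5 FPKM in WT and 7.52 and 7.63 FPKM in *wxe* (log2 fold change -0.63, SE 0.13). Both were called lower. The jmjC domain gene *Sobic.001G175000* was called higher, with 21.9 and 22.1 FPKM in WT and 45.4 and 34.1 FPKM in *wxe*, replicate 1 the higher. That direction is opposite to the one the study gives. The gene was also called higher at 11 DPA (log2 fold change 0.95) and was called lower at 21 DPA (-0.97). The C2H2 zinc finger gene *Sobic.001G501800*, at 5.99 and 6.44 FPKM in WT and 3.89 and 3.96 FPKM in *wxe*, had an adjusted p of 5.95e-04 (limma) but a log2 fold change of -0.55, under the fold threshold. It was called without WT replicate 1 (-0.59).

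The largest changes were found in genes for which the sources used here gave no name. The 10 largest falls mostly began from high levels in WT. *Sobic.010G136100* had 49.6 and 133 FPKM in WT and 0.313 and 0.999 FPKM in *wxe* (log2 fold change -5.67, SE 0.37, adjusted p = 2.01e-06, limma). *Sobic.009G021300* had 497 and 831 FPKM in WT and 34.6 and 20.6 FPKM in *wxe*, and *Sobic.001G274025* had 579 and 856 FPKM in WT and 35.2 and 32.5 FPKM in *wxe*. In all 3 genes WT replicate 2 was the highest library and the *wxe* libraries were more than 10-fold under either WT library.

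The other 7 falls ran from -3.80 to -2.97 on the log2 scale. *Sobic.005G189000* had 894 and 1464 FPKM in WT and 114 and 71.4 FPKM in *wxe*, *Sobic.005G188800*, close to it in identifier, had 332 and 506 FPKM in WT and 53.2 and 31.0 FPKM in *wxe*, and *Sobic.005G185600*, also on chromosome 5, had 589 and 1198 FPKM in WT and 118 and 75.5 FPKM in *wxe*. *Sobic.009G021400*, next to *Sobic.009G021300* in identifier, had 998 and 1540.0 FPKM in WT and 127 and 146 FPKM in *wxe*. The WT libraries differed from each other most in *Sobic.002G211501*, with 27.6 and 85.1 FPKM against 4.78 and 1.21 FPKM in *wxe*. *Sobic.002G028100* had 195 and 228 FPKM in WT and 23.4 and 17.1 FPKM in *wxe*. Genes with close identifiers can be copies that share reads, and how such reads were divided is not given in the sources used here.

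These 10 genes were far more abundant in both genotypes at 11 DPA. There *Sobic.005G185600* had a mean of 51711 FPKM in WT and 32534 FPKM in *wxe*, and *Sobic.005G189000* had 31142 and 25488 FPKM. At that age *Sobic.009G021300* was called lower (log2 fold change -1.24) and *Sobic.001G274025* was called higher (1.07), a turn of direction. At 21 DPA *Sobic.001G274025* was called lower once more (-1.33). *Sobic.002G211700*, the most abundant of the 10 at 6 DPA with 2477 and 3486 FPKM in WT and 383 and 367 FPKM in *wxe*, had 57961 FPKM in WT at 11 DPA and was listed at 0 in every library of 16 and 21 DPA. A listed 0 after so high a level may be a failed estimate.

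The 10 largest rises were of genes at 0.214 to 26.8 FPKM in the WT libraries. *Sobic.007G075301* had 1.43 and 0.385 FPKM in WT and 60.3 and 31.0 FPKM in *wxe* (log2 fold change 4.59, SE 0.46, adjusted p = 3.13e-05, limma). *Sobic.005G101900* had 0.798 and 0.214 FPKM in WT and 16.8 and 22.2 FPKM in *wxe* (log2 fold change 3.78, SE 0.19, adjusted p = 3.83e-07, limma). No library of one genotype came near the other in either gene. Replicate 2 of *wxe* was the higher in all but *Sobic.007G075301* among the 10, as in *Sobic.002G339100* with 26.1 and 87.3 FPKM in *wxe* against 4.11 and 2.88 FPKM in WT, and in *Sobic.004G000700* with 24.1 and 84.9 FPKM against 3.82 and 4.15 FPKM. All 10 kept their call without either *wxe* library, and without replicate 2 their fold changes ran from 2.33 to 5.06.

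The rises differed in their later course. *Sobic.006G202500* had 1.11 and 1.34 FPKM in WT and 18.3 and 21.3 FPKM in *wxe* at 6 DPA and was still called higher at 11 DPA, with means of 1.44 FPKM in WT and 23.6 FPKM in *wxe* (log2 fold change 3.34). *Sobic.010G179800* turned, from 0.872 and 0.739 FPKM in WT and 9.72 and 25.4 FPKM in *wxe* at 6 DPA to means of 12.4 FPKM in WT and 0.285 FPKM in *wxe* at 11 DPA (log2 fold change -3.37, adjusted p = 2.26e-05, limma). *Sobic.007G075301* likewise had means of 3910.1 FPKM in WT and 912 FPKM in *wxe* at 11 DPA (log2 fold change -2.10). At 21 DPA *Sobic.007G075301* was called higher once more, with means of 777 FPKM in WT and 2298 FPKM in *wxe* (log2 fold change 1.73). *Sobic.006G269200*, the most abundant of the 10 in *wxe* with 179 and 290.5 FPKM against 26.8 and 25.1 FPKM in WT, had means of 424 FPKM in WT and 151 FPKM in *wxe* at 11 DPA, again turned. *Sobic.009G086100*, *Sobic.004G190400* and *Sobic.003G400200* rose with log2 fold changes of 3.12, 3.12 and 3.10 and were called lower at 11 DPA, at -1.21, -0.61 and -1.87.

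**Figure D4:**
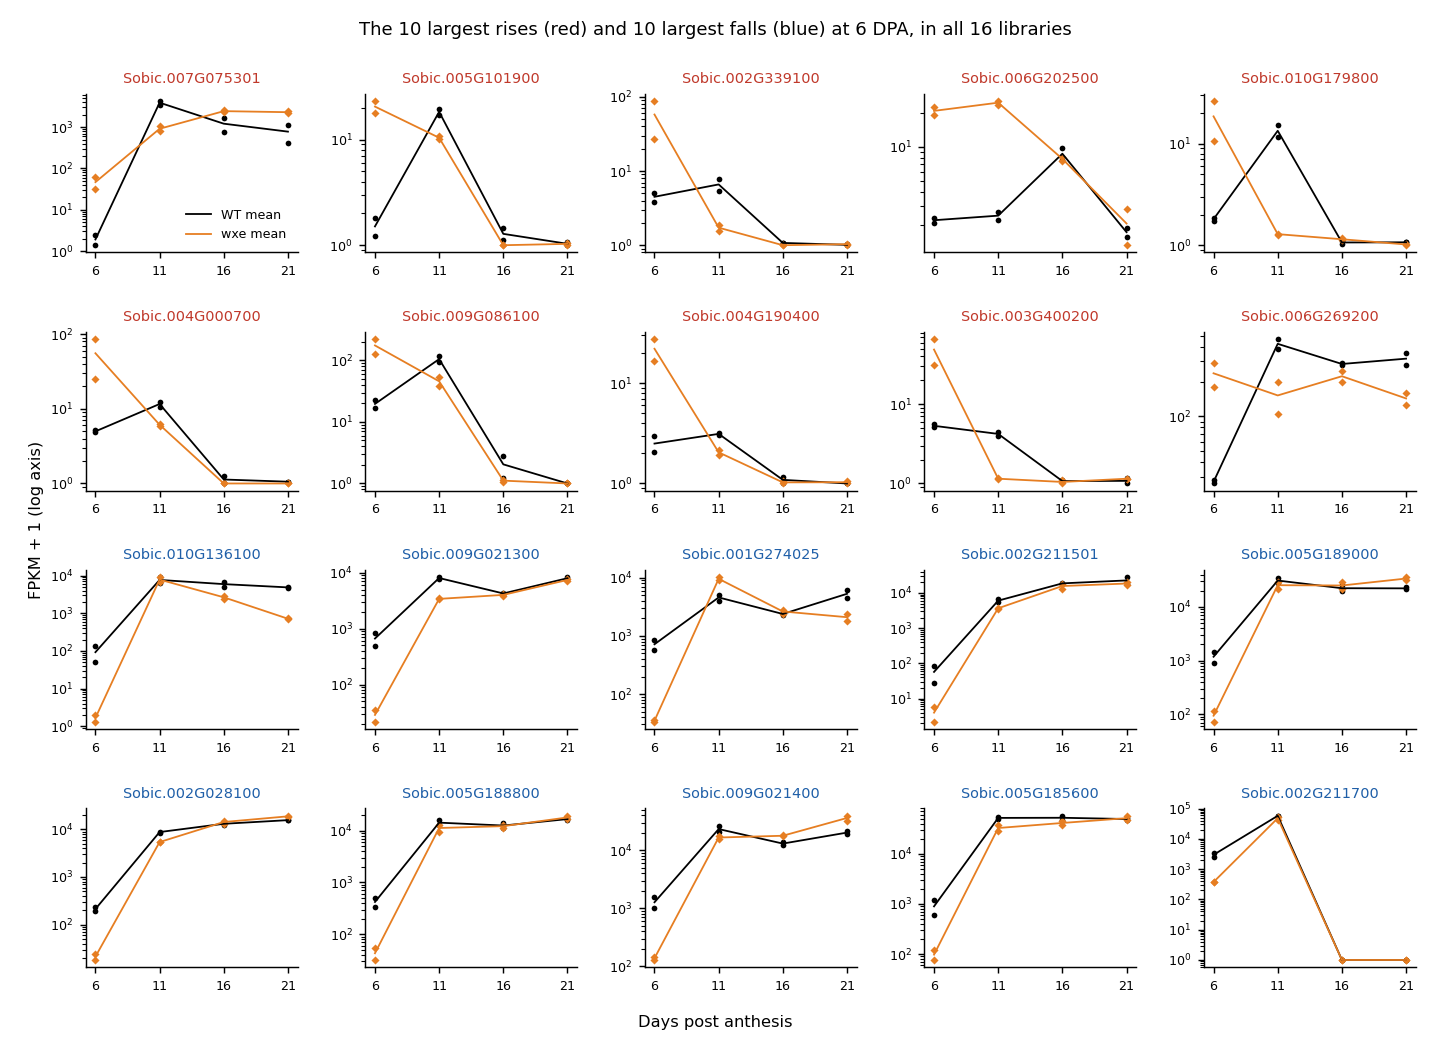
FPKM + 1 (vertical log axis, its range set for each gene) by days post anthesis for the 10 largest rises (red names) and the 10 largest falls (blue names) at 6 DPA, with WT libraries as black circles, *wxe* libraries as orange diamonds and lines through the group means. The *wxe* libraries lie apart from WT at 6 DPA by the rule that chose the genes; from 11 DPA most red genes cross or close, and the blue genes are far above their 6 DPA level in both genotypes, except *Sobic.002G211700*, listed at 0 from 16 DPA.

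Among the most abundant genes with a call, *Sobic.001G488000* led the higher ones, with 2314 and 2224 FPKM in WT and 4338 and 6250.3 FPKM in *wxe* (log2 fold change 1.20, SE 0.22, adjusted p = 0.00167, limma). *Sobic.001G200800* rose from 1009 and 961 FPKM to 2689 and 4716 FPKM, and *Sobic.006G111100* from 829 and 744 FPKM to 2705 and 4538 FPKM. In these genes too replicate 2 was the higher. With a pseudocount of 0.1 the adjusted p of *Sobic.001G200800* (limma) was no longer below 0.05. Both became scarcer with age, *Sobic.001G200800* to a WT mean of 9.12 FPKM and *Sobic.006G111100* to 134 FPKM at 11 DPA. *Sobic.008G031000*, at 897 and 816 FPKM in WT and 2298 and 3861 FPKM in *wxe*, and *Sobic.008G136000*, at 1153 and 1111 FPKM in WT and 1423 and 2099 FPKM in *wxe*, lost their calls without *wxe* replicate 2 or WT replicate 2, and *Sobic.008G136000* also without WT replicate 1 (0.64). The log2 fold change of *Sobic.008G031000* was 1.80, 1.42 without *wxe* replicate 2 and 1.73 without WT replicate 2. That of *Sobic.008G136000* was 0.61, 0.33 without *wxe* replicate 2 and 0.58 without WT replicate 2.

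The most abundant gene called lower was *Sobic.003G326300*, with 4982 and 4857 FPKM in WT and 3277 and 2026 FPKM in *wxe* (log2 fold change -0.93, SE 0.22, adjusted p = 0.00642, limma). It was not called without *wxe* replicate 2 (-0.59), and at 11 DPA it was called higher, with means of 2671 FPKM in WT and 6608 FPKM in *wxe*. *Sobic.009G001600* had 3064 and 3846 FPKM in WT and 417 and 497 FPKM in *wxe*, 7.56-fold lower, and its *wxe* mean at 11 DPA was 39854 FPKM against 44097 FPKM in WT. *Sobic.009G132900* was at 1712 and 1749 FPKM in WT and 770.5 and 749 FPKM in *wxe*, and *Sobic.004G085100* at 1856 and 1668 FPKM in WT and 841 and 961 FPKM in *wxe*. Leaving out any 1 library kept the calls of these last 3 genes.

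Few genes were listed at 0 in 1 genotype and measured in the other. With both libraries of 1 genotype at 0 and both of the other above 1 FPKM, 7 genes were listed at 0 in WT and 1 in *wxe*. *Sobic.008G139400*, at 0 in both WT libraries, had 2.74 and 2.76 FPKM in *wxe*, and it was listed at 0 in the libraries of both genotypes at the 3 later ages. *Sobic.K044404* had 6.88 and 2.32 FPKM and *Sobic.009G017666* had 4.37 and 1.48 FPKM in *wxe*, both at 0 in WT and neither called. *Sobic.007G179266* was listed at 0 in both *wxe* libraries, with 1.27 and 2.59 FPKM in WT. With all 4 libraries it was called lower (adjusted p = 0.0408, limma), and with any 1 of them left out it kept its direction but its adjusted p was no longer below 0.05. A listed 0 may be a failed estimate, so no fold is given.

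The 2 *wxe* libraries differed most in genes that 1 of them listed at 0. *Sobic.009G166900* had 18.2 FPKM in *wxe* replicate 1, *Sobic.001G227850* 12.4 FPKM and *Sobic.001G391800* 5.83 FPKM, and all 3 were listed at 0 in *wxe* replicate 2 and in both WT libraries. *Sobic.001G255932* had 8.91 FPKM in *wxe* replicate 2 and was listed at 0 in the other 3 libraries. None of these 4 was called, and the first 3 were called without *wxe* replicate 2. *Sobic.002G192101*, listed above 0 in all libraries, had 1.85 and 2.21 FPKM in WT and 3.13 and 24.6 FPKM in *wxe*, and its log2 fold change was 1.76 (adjusted p = 0.0493, limma). Without *wxe* replicate 2 it was 0.45 and not called. Without WT replicate 1 (1.68) or WT replicate 2 (1.85) it kept its size but not its adjusted p.

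The genes called at 6 DPA lay on all 10 chromosomes. The share called higher ran from 11.3% of tested genes on chromosome 5 to 17.1% on chromosome 6, and the share called lower from 4.33% on chromosomes 4 and 6 to 7.07% on chromosome 5. Most called genes had no called neighbour of the same direction among the tested genes, 1594 of the higher and 761 of the lower. The longest run of neighbours called higher held 7 genes, from *Sobic.002G338000* to *Sobic.002G338500*, with log2 fold changes of 0.74 to 2.56. Runs of 5 lay from *Sobic.006G230700* to *Sobic.006G231200* and from *Sobic.008G030600* to *Sobic.008G031000*. The longest run called lower held 4 genes, from *Sobic.007G116500* to *Sobic.007G116766*, with fold changes of -1.27 to -0.60. Runs were not tested against chance.

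Whether the effect of *wxe* at 6 DPA differed from that later was tested directly. The effect at 6 DPA minus the mean effect at 11, 16 and 21 DPA passed an adjusted p of 0.05 in 6437 genes (37.9%, limma). Of the 3320 genes called at 6 DPA, 3049 did. All 2263 such genes among those called higher were more strongly higher at 6 DPA than later, and 784 of the 786 such genes among those called lower were more strongly lower. The genes with a call at 6 DPA were chosen on that effect, so these shares describe them. Among the 37 genes with a role, 29 differed, with 5 of 8 starch genes, all 9 sugar genes and all 12 transcription factor genes. *SbGBSSI* had the lower mean in *wxe* at each age, called at 6, 11 and 21 DPA, and its effect at 6 DPA minus the mean later effect was -0.48, not past the threshold (SE 0.18, adjusted p = 0.0533, limma).

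At 11 DPA many genes stood the other way. The libraries of 11 DPA are separate from those of 6 DPA, but the calls at both ages use the same fitted spread of each gene. A gene with a small spread is more easily called at both ages, so the calls are not independent. Of the 2447 genes called higher at 6 DPA, 1754 were tested at 11 DPA, where 771 (44.0%) were called lower and 71 (4.05%) higher. Over all genes tested at 11 DPA, 12.1% were called lower and 5.78% higher. Of the 873 genes called lower at 6 DPA, 825 were tested at 11 DPA, where 89 (10.8%) were called higher and 73 (8.85%) lower. That balance depended on single libraries. It was 25 higher (5.17%) and 75 lower of 484 without *wxe* replicate 2, 228 (14.5%) and 66 of 1569 without *wxe* replicate 1, 60 and 73 without WT replicate 1, and 45 and 54 without WT replicate 2. At 16 DPA 1302 of the genes called higher were tested, of which 16 (1.23%) were called higher and 6 (0.461%) lower, against 0.674% and 0.314% over all genes. At 21 DPA 1301 were tested, of which 66 (5.07%) were called higher and 134 (10.3%) lower, against 3.58% and 2.93%. *SbSWEET16* showed the turn at 11 DPA, with means of 13.7 FPKM in WT and 4.35 FPKM in *wxe* (log2 fold change -1.47, adjusted p = 9.86e-04, limma), as did the MYB gene *Sobic.003G267400* (-1.28), the zinc finger homeodomain gene *Sobic.005G019800* (-0.81) and the ERF gene *Sobic.009G170800* (-1.22). The sucrose synthase genes turned upward, *SS2* to a log2 fold change of 0.68 and *SS3* to 0.66, both called. The jmjC gene *Sobic.001G175000* stayed higher (0.95). *SbSWEET1*, *SbAGA1* and *3-ketoacyl-CoA synthase 1* were not called at 11 DPA, and *invertase 3* was not tested there. The NAC genes *Sobic.003G105600* and *Sobic.009G086800* stayed lower, at -0.87 and -0.65. So did the ERF gene *Sobic.007G147300* (-0.77), *SbGBSSI* (-0.67), *Sobic.008G013000* (-1.73) and *Sobic.003G017500* (-0.82). The other genes with a role called lower at 6 DPA were not called at 11 DPA.

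**Figure D5:**
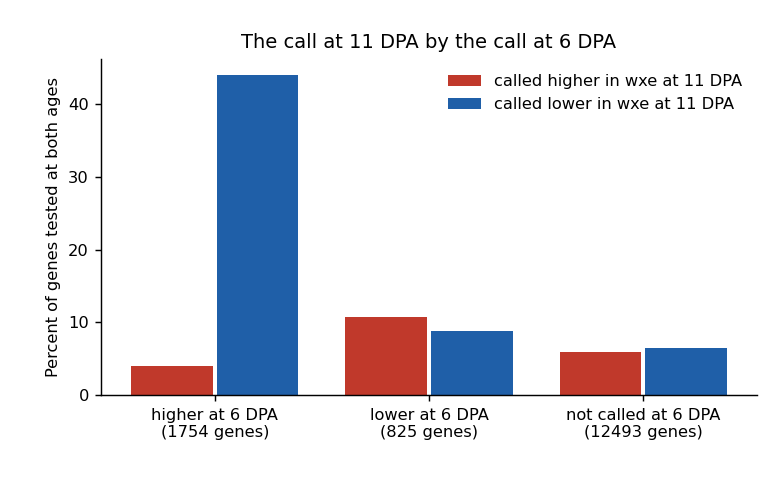
Percent of genes tested at both ages (vertical axis, from 0) that were called higher (red) or lower (blue) in *wxe* at 11 DPA, by their call at 6 DPA (horizontal axis). Genes called higher at 6 DPA were called lower at 11 DPA in 44.0% of 1754 cases, against 6.52% of the 12493 genes without a call at 6 DPA.

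The effects at 6 and 11 DPA had a Pearson's r of -0.40 across 15072 genes, given as a description, since genes are not replicates. Between 6 and 16 DPA it was 0.05 across 14122 genes and between 6 and 21 DPA -0.12 across 13913 genes. For the genes called higher at 6 DPA, the share called lower at 11 DPA was read with each *wxe* library of 6 DPA alone. Without replicate 2, 559 of the 1116 genes called higher at 6 DPA and tested at 11 DPA (50.1%) were called lower there, and without replicate 1, 957 of 2286 (41.9%). With no filter on low values the share was 27.8% (663 of 2389).

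The later course of the called genes within each genotype was read from libraries of other ages. Levels at 11 and 16 DPA do not enter the 6 DPA fold change, but their spread between replicates enters the 6 DPA calls. From 11 to 16 DPA the WT mean fell by at least 0.58 on the log2 scale in 44.5% of the 2447 genes called higher. It fell so in 17.9% of the 873 called lower and in 16.7% of the 13647 not called. In *wxe* the same fall was found in 23.9%, 19.5% and 16.6%. Across 16967 genes the 6 DPA effect had an r of -0.28 with the WT change from 11 to 16 DPA and of -0.04 with the *wxe* change. The WT change uses the WT libraries of 11 DPA, as does the effect at 11 DPA, so the 2 are not independent. The difference between the 2 *wxe* libraries of 6 DPA (replicate 2 minus replicate 1) had an r of -0.24 with the WT change. The difference between the 2 WT libraries of 6 DPA had an r of 0.03 with it. These values are descriptions without a test. Whether the panicles labelled 6 DPA in the 2 genotypes were at the same stage was not tested, and stage and genotype cannot be told apart in the 4 libraries of this age.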

How the data were processed

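The data were RNA-seq values of 16 endosperm libraries, 2 per genotype and age. The authors mapped paired-end reads with STAR to version 3 of the sorghum genome, and the FPKM per gene that they deposited came from Cufflinks. Tool versions and the annotation release are not given in the sources used here. The table holds no counts, so the depth in reads and the counting error are not known. A relative depth was estimated from the most common ratio of values below 0.15 FPKM, with WT 6 DPA replicate 1 as the reference. It was 0.912 to 1.02 in the libraries of 6 DPA and 0.399 to 0.627 in those of the later ages. What this gap does to comparisons of 6 DPA with later ages was not tested.

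Of the deposited FPKM values, those of the 18349 genes whose mean passed 1 FPKM in any group were fitted on log2(FPKM + 1) with limma 3.58.1 in R 4.3.3, with a mean for each of the 8 groups, a variance trend and no covariate. The contrast of 6 DPA was adjusted over 16967 genes by the Benjamini-Hochberg method. The study's own test, Cuffdiff, needs the reads and was not run. The filter and the threshold values are those of the study's methods, but 0.58 was applied to the difference of log2(FPKM + 1), whereas the study takes the ratio of FPKM, which was run as an alternative. Nothing says that the 2 replicates of a group came from separate plots, so p-values measure the spread between pools of panicles.

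Named genes were the 37 that the study names, the 10 largest rises and falls and the 5 most abundant called genes in each direction (both *wxe* libraries outside the WT range), up to 3 genes listed at 0 in each direction, and the 5 genes with the largest difference between the *wxe* libraries. These members and lists were chosen with earlier results of these data known. Of the gene identifiers, 0 matched the reference table at hand, so lists by gene product, markers of other tissues and sequences were not used here. The fit was tested on simulated data. Alternatives were another pseudocount, other filters, 6 DPA alone, a replicate block, other scalings, variance models and fold definitions, and each 6 DPA library left out.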

Additional observations from a re-analysis of the deposited data

Results flagged for a closer look

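For 58 of the 75 named genes the effect of *wxe* (wxe minus WT, log2 scale) at 6 DPA differed from the mean effect at 11, 16 and 21 DPA at an adjusted p below 0.05 (limma), and in all 58 the difference had the sign of the 6 DPA effect. Such a difference was found in 37.9% of all genes tested. Many of the named genes were chosen for their effect at 6 DPA, which favours a difference of that sign, so the count of 58 is a description and no support. The values below are the effect at 6 DPA minus the mean later effect.

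Among starch genes the difference was -1.26 for *SbSBEIIb* (*Sobic.004G163700*), -1.21 for *SbAGPLS1* (*Sobic.003G230500*), -1.36 for *Sobic.002G160400*, -1.16 for *SbSSIIIa* (*Sobic.007G068200*) and -1.02 for *SbSSIIC* (*Sobic.001G239500*). Among sugar genes it was -1.504 for *SS2* (*Sobic.001G344500*), -1.10 for *SS3* (*Sobic.001G378300*), -0.66 for *Sobic.002G291200*, -0.57 for the sucrose transporter *Sobic.001G488700* and -0.54 for *SbAGA2* (*Sobic.002G075900*). It was upward for *SbSWEET16* (*Sobic.001G377600*, 2.45), *SbAGA1* (*Sobic.002G075800*, 2.21), *SbSWEET1* (*Sobic.003G377700*, 1.56) and *invertase 3* (*Sobic.004G004800*, 0.87). Of the fatty acid genes, *3-ketoacyl-CoA synthase 1* (*Sobic.001G482300*) had 0.97 and the malonyl transacylase gene *Sobic.001G403400* had -0.79.

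All 12 transcription factor genes differed. The NAC genes had -2.21 (*Sobic.005G056300*), -1.18 (*Sobic.002G192600*), -1.14 (*Sobic.003G105600*) and -1.08 (*Sobic.009G086800*), and the bZIP genes -1.23 (*Sobic.002G054800*) and -0.52 (*Sobic.002G055000*). The ERF gene *Sobic.007G147300* had -1.18, the MYB gene *Sobic.002G308400* -1.01 and the B3 gene *Sobic.007G083900* -1.31. The values were 2.06 for the MYB gene *Sobic.003G267400*, 1.92 for the zinc finger homeodomain gene *Sobic.005G019800* and 1.46 for the ERF gene *Sobic.009G170800*. The jmjC gene *Sobic.001G175000* had 0.997.

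The 10 largest rises differed by 4.35 (*Sobic.007G075301*), 4.33 (*Sobic.010G179800*), 4.17 (*Sobic.005G101900*), 4.12 (*Sobic.002G339100*), 4.11 (*Sobic.006G269200*), 3.78 (*Sobic.009G086100*), 3.71 (*Sobic.003G400200*), 3.61 (*Sobic.004G000700*), 3.33 (*Sobic.004G190400*) and 2.10 (*Sobic.006G202500*). The 10 largest falls differed by -4.37 (*Sobic.010G136100*), -4.30 (*Sobic.001G274025*), -4.06 (*Sobic.009G021300*), -3.81 (*Sobic.005G189000*), -3.45 (*Sobic.009G021400*), -3.38 (*Sobic.002G211501*), -3.23 (*Sobic.002G028100*), -3.21 (*Sobic.005G188800*), -2.88 (*Sobic.002G211700*) and -2.82 (*Sobic.005G185600*). The value of *Sobic.002G211700* rests partly on libraries of 16 and 21 DPA in which it is listed at 0.

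Among the most abundant called genes the difference was 2.15 for *Sobic.008G031000*, 1.81 for *Sobic.001G488000*, 1.49 for *Sobic.006G111100* and 1.16 for *Sobic.001G200800* on the higher side, and -3.30 for *Sobic.003G326300*, -3.06 for *Sobic.009G001600*, -1.40 for *Sobic.009G132900* and -1.18 for *Sobic.004G085100* on the lower side. *Sobic.008G139400* had 1.91, which is no test of a change with age and no fold, since the gene is listed at 0 in WT at 6 DPA and in all libraries of the later ages.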

How the results depend on the processing

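With 6 DPA fitted alone, 1909 genes were called (1466 higher, 443 lower), with 3 starch genes lower, 1 sugar gene higher and 0 fatty acid genes higher. That fit has 2 residual degrees of freedom. A filter at a mean of 5 FPKM, which tests fewer genes, left 2194 calls (1542 higher). Quantile normalization called 1543 genes lower and 4 sugar genes lower. A fold threshold on the ratio of the group means added 1 starch gene called higher and gave 4139 calls in all. The other settings gave 2999 (group variance weights) to 3404 calls.

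Leaving out 1 library, which assumes that the lone library of its group varies like the other groups, gave 2126 to 4742 calls, 1604 to 3103 higher and 522 to 1639 lower. The counts ran from 3 to 6 for starch genes lower and 0 to 1 higher, 2 to 4 for sugar genes higher and 1 to 3 lower, and 0 to 1 for fatty acid genes in each direction. *SbAGPLS2* (*Sobic.009G245000*), not called in any of these, ran from -0.10 (without *wxe* replicate 2) to 0.40 (without *wxe* replicate 1). Of the 60 named genes with a call, 12 lost it without *wxe* replicate 2, 8 without WT replicate 2, 7 without WT replicate 1 and 2 without *wxe* replicate 1.

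With the replicate number as a block, 3404 genes were called and no named gene changed its call. The numbers were not taken to pair the samples. No label says that a number marks anything shared, and same-numbered libraries of WT and *wxe* deviated oppositely at 6 DPA (r = -0.29, the lowest of 28 pairs of groups) but together in other pairs of groups, at most with r = 0.38. Crossing the numbers, an alternative chosen after the data were seen, gave 3300 calls.

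At 0.5 FPKM in the other genotype, 5 genes were listed at 0 in *wxe*, and at 2 FPKM 0 were, with 2 in WT. A log2 difference of at least 0.58 separated 2080 genes between the *wxe* libraries and 371 between the WT libraries, and one of at least 2 separated 18 and 10. The count of genes called higher at 6 DPA and lower at 11 DPA, a result chosen after the data were seen, was 500 (53.8% of those tested) with the filter at 5 FPKM, 663 (27.8%) with no filter and 559 to 957 (41.9% to 50.1%) with 1 library left out. The fold threshold does not enter the test against later ages, and 6 DPA alone cannot give results on other ages, so these were not run. FPKM without counts limits what can be said of low genes.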
